A study of Drosophila melanogaster with 9 samples.

Results

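Embryos titled non-stop were compared with embryos titled ataxin-7, and the wild-type strain OregonR of the same series was left out. The 6 libraries taken were the 3 non-stop and the 3 ataxin-7 columns of a table of 9 libraries, chosen by their titles. All held polyadenylated RNA of Drosophila melanogaster embryos at stage 5, which were picked by hand after a collection of 2 h and ageing of 1 h at 25 °C, and each genotype had biological triplicates per the labels. The alleles, the parental crosses and any maternal contribution of wild-type gene product are not given in the sources used here. The non-stop libraries came from experiment 1190 and the ataxin-7 libraries from experiment 1013, so genotype and experiment cannot be told apart in any difference below. The genotype tags of ataxin-7 replicates 2 and 3 carry other numbers than their titles, and the titles were followed.

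Non-stop (gene symbol not) and Ataxin-7 (Atxn7) belong to the deubiquitinase module of SAGA, a large transcriptional co-activator. Non-stop is the ubiquitin protease that removes ubiquitin from histone H2B, and Ataxin-7 holds the module on the rest of the complex. Stage 5 is the cellular blastoderm. At this stage the RNAs that the mother loaded into the egg are being cleared while the genome of the embryo switches on patterning and cellularization genes, so the levels of both kinds of RNA shift quickly. A library of whole embryos cannot separate fewer cells that make an RNA from less of that RNA per cell.

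Non-stop libraries held from 36.92 to 39.29 M reads in genes, against 74.86 to 82.08 M in the ataxin-7 libraries. Values were RPKM, reads per kilobase of gene scaled to library size. The gene length behind them was mostly the genomic span with introns, so intron-rich genes have a low RPKM for their RNA level. Genes were tested where 3 or more of the 6 libraries reached an RPKM of 1, which held for 6968 of 15682 genes. Over these, Pearson correlations of log2(RPKM + 1) between libraries were 0.993 to 0.997 within non-stop. Ataxin-7 replicates 2 and 3 correlated at 0.997 with each other, whereas replicate 1 correlated at 0.921 and 0.905 with them and at 0.943 to 0.951 with the non-stop libraries. Replicate 1 thus stood apart from the replicates of its own title, and results are given with and without it. Markers of later neurons, glia and muscle summed to between 4.81 and 5.34 RPKM over 10 genes in non-stop and to between 4.9 and 6.97 RPKM in ataxin-7 libraries, and blood cell markers stayed under 1 RPKM in all 6 libraries.

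The targeted genes were examined first. In the non-stop libraries not had an RPKM of 0.608, 0.662 and 1.11, against 45.0, 46.9 and 54.0 in the ataxin-7 ones. The groups lay far apart, and all 3 libraries titled ataxin-7 carried the transcript at a similar level. The log2 fold change was -4.80 ± 0.16 (SE; limma adjusted p = 0.00024; exact two-sided permutation p = 0.1, which is the smallest that 3 against 3 libraries allow). Atxn7 itself had an RPKM of 19.0, 18.1 and 19.0 in non-stop libraries and 21.9, 25.5 and 28.0 in those titled ataxin-7. The transcript was thus not lower in the embryos that bear its name, and its log2 fold change of -0.40 ± 0.10 (limma adjusted p = 0.0359; exact permutation p = 0.1) put non-stop below ataxin-7. This level does not bear out the label. It cannot test the label either, since the comparison is with another mutant from another experiment and the allele is not given. The libraries are called the libraries labelled ataxin-7 from here on. The call of Atxn7 was lost without ataxin-7 replicate 2 (-0.39) or 3 (-0.32) and without non-stop replicate 1 (-0.41), 2 (-0.38) or 3 (-0.41). It was also lost under 4 of the other settings, while the sign stayed.

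Of the 6968 tested genes, 2241 (32.2%) were called at a Benjamini-Hochberg adjusted p under 0.05 in limma, 1077 of them (15.5% of those tested) higher and 1164 (16.7%) lower in non-stop. A difference of at least 2-fold was reached by 494 of the called genes (7.09% of those tested). Without ataxin-7 replicate 1 the count was 5655 (81.2%), of which 3618 (51.9%) were higher and 2037 (29.2%) lower, and all 2241 genes stayed called with the same sign. Leaving out another library lowered the count: 957 genes were called without ataxin-7 replicate 2, 1497 without replicate 3, and 788, 810 and 820 without non-stop replicates 1, 2 and 3. The median log2 fold change over all tested genes was 0.12 with replicate 1 and 0.22 without it, and scaling each library by the median of its ratios to the geometric mean over libraries moved the median to 0.00.

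For each gene the position of replicate 1 was then read against the 3 non-stop values. Replicates 2 and 3 both lay below all non-stop values for 3883 genes and both above them for 2260 genes, and lay on no common side for 825 genes (11.8%). Replicate 1 fell on the same side as replicates 2 and 3 for 3736 genes (53.6% of those tested), so that the 2 groups did not overlap: non-stop was higher for 1899 of them (27.3%) and lower for 1837 (26.4%). It fell within the non-stop range for 554 genes (7.95%) and on the opposite side of all non-stop values for 1853 genes (26.6%). The agreement was uneven. Where replicates 2 and 3 were above non-stop, replicate 1 agreed for 81.3% of the genes and was opposite for 9.42%, and where they were below, it agreed for 48.9% and was opposite for 42.2%. All 2241 called genes were among those in which replicate 1 agreed. These positions describe a single library and carry no test.

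The genes that separated the mutants most sharply were on in one group and nearly off in the other, and replicate 1 was at the level of replicates 2 and 3 in most of those that were lower in non-stop. Drep1, a relative of the DNA fragmentation factor, had an RPKM of 0.986, 1.08 and 1.86 in non-stop libraries and 41.5, 48.9 and 54.8 in libraries labelled ataxin-7 (log2 fold change -4.43 ± 0.19, limma adjusted p = 0.000414). CG43064 had 0.382, 0.318 and 0.601 RPKM in non-stop, against 28.3, 25.9 and 25.7, with a log2 fold change of -4.27. Map205, a microtubule-associated protein gene, had 0.795, 0.814 and 1.20 RPKM in non-stop and 33.1, 29.0 and 29.4 in the libraries labelled ataxin-7 (-4.03). In these 3 genes the highest non-stop value was far below the lowest of the other group. The same held for LManII, which encodes a lysosomal alpha-mannosidase (2.54 RPKM on average in non-stop and 48.8 in the libraries labelled ataxin-7), for pyd3, an enzyme of pyrimidine breakdown (1.10 and 18.8), for GILT3, a lysosomal thiol reductase gene (1.79 and 24.1), and for Tep2, a thioester protein of innate immunity (0.165 and 8.25), whose locus overlaps CG43235.

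Cyp12c1, a mitochondrial cytochrome P450 gene, had no read in any non-stop library and an RPKM of 9.16, 10.3 and 11.3 in those labelled ataxin-7. The transcript was at least 239-fold lower in non-stop, taking 3 reads in a library as the floor, which covers counting error only. Pepck1, the phosphoenolpyruvate carboxykinase of gluconeogenesis, had 0.404, 1.95 and 2.14 RPKM in non-stop and 30.9, 51.4 and 65.4 in the other group (log2 fold change -4.35 ± 0.42). CG6180, which overlaps CG15484, had 12.1, 14.4 and 11.8 RPKM in non-stop and 158, 117 and 112 in the libraries labelled ataxin-7. In this gene replicate 1 was the highest library. In CG34214, which overlaps the complex I gene ND-19, replicate 1 held a place between the groups: 15.2, 29.2 and 29.7 RPKM in non-stop, against 65.8 in replicate 1, 266 in replicate 2 and 474 in replicate 3.

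**Figure D1:**
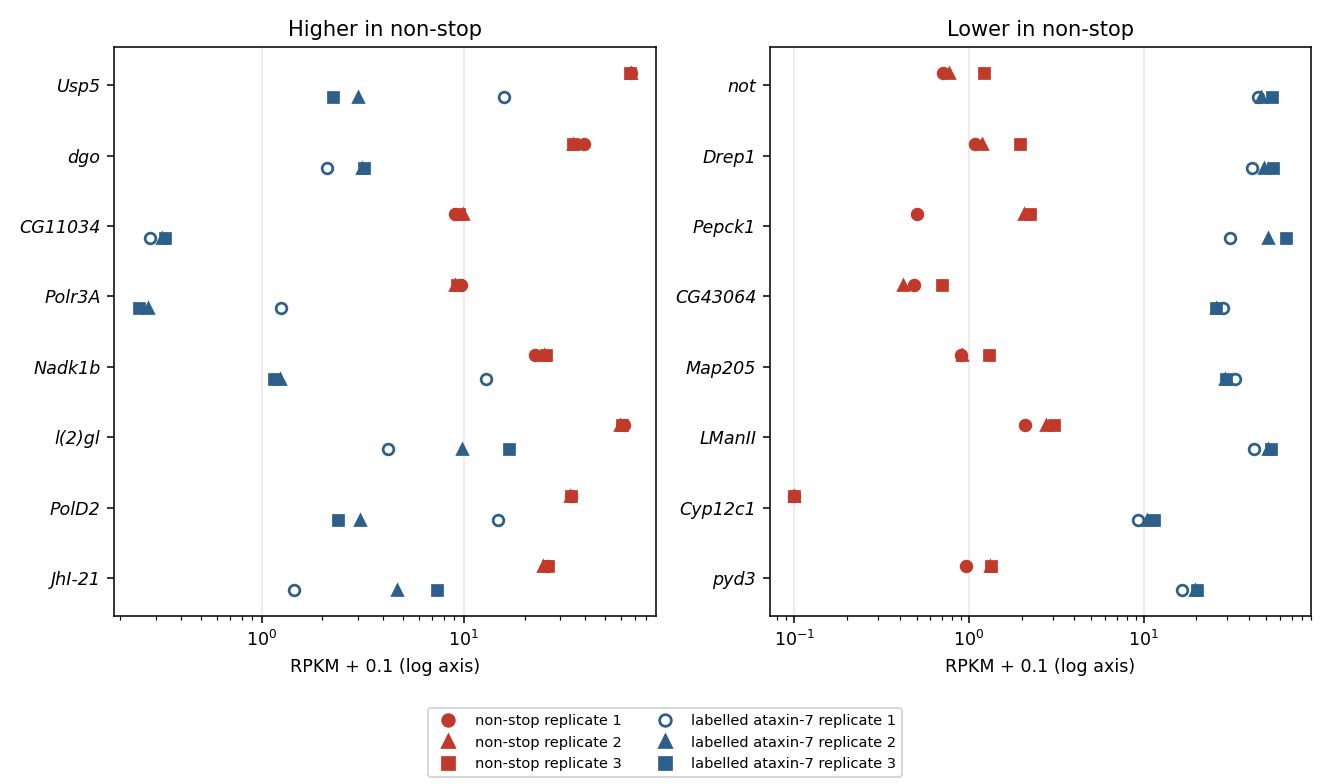
RPKM in each library (log axis, with 0.1 added so that 0 can be drawn) of the 8 called genes with the largest difference in each direction, with non-stop libraries in red and libraries labelled ataxin-7 in blue, replicate 1 as an open circle. On the right the open circles sit with the other blue points for all genes but, in part, Pepck1, and on the left they lie between the groups for Usp5, Polr3A, Nadk1b and PolD2.

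Among the 12 genes with the largest difference in the other direction, replicate 1 lay between non-stop and its fellow replicates in some and was the lowest library in others. Usp5 was at the head of this list, and it encodes a ubiquitin-specific protease of the same enzyme family as Non-stop, known in mammals for taking apart free ubiquitin chains. Its RPKM was 66.9, 67.1 and 66.4 in non-stop libraries, against 15.7 in replicate 1 and 2.91 and 2.15 in replicates 2 and 3 labelled ataxin-7 (log2 fold change 3.52 ± 0.64, limma adjusted p = 0.0123, and 4.27 without replicate 1). Replicate 1 was below all non-stop values but 6.21 times the mean of replicates 2 and 3. The same intermediate place was taken in Polr3A, the largest subunit of RNA polymerase III (9.57, 8.91 and 9.19 RPKM in non-stop, then 1.15, 0.173 and 0.147), and in Nadk1b, an NAD kinase gene (22.5, 24.9 and 25.3 RPKM, then 12.8, 1.13 and 1.05). PolD2, a DNA polymerase delta subunit gene that overlaps CG2021, CG17568, which overlaps brat, and CG5274 showed it too, with replicate 1 at 14.6, 7.97 and 10.4 RPKM and replicates 2 and 3 between 1.03 and 3.37 RPKM.

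Replicate 1 was instead the lowest library in 5 of these 12 genes. The planar polarity gene dgo had an RPKM of 39.2, 34.6 and 34.7 in non-stop and 2.01, 3.03 and 3.11 in the libraries labelled ataxin-7 (log2 fold change 3.33 ± 0.16, limma adjusted p = 0.000479). CG11034 had 8.91, 9.78 and 9.40 RPKM in non-stop and 0.180, 0.220 and 0.231 in the other group. The tumour suppressor and cell polarity gene l(2)gl had 61.9, 59.3 and 60.9 RPKM in non-stop, against 4.10, 9.74 and 16.7. The amino acid transporter gene JhI-21, which overlaps PLCXD, had 25.6, 24.6 and 25.9 RPKM in non-stop and 1.34, 4.59 and 7.28 in the other group. Cyp4p2, a cytochrome P450 gene that overlaps hig, had 2.57, 4.03 and 3.83 RPKM in non-stop and under 0.1 in all 3 libraries labelled ataxin-7.

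Classes of genes were then followed, each as the count of tested members called, the median log2 fold change and the place of replicate 1. Over all tested genes 15.5% were called higher and 16.7% lower, and replicate 1 agreed for 53.6%. Without replicate 1 the shares called were 51.9% higher and 29.2% lower. The class lists were drawn up with results of these data known, so their counts describe the 6 libraries. Classes overlap in a few members, such as osk, hb, pum and brat. Many calls of single genes were lost when a library was left out: of 153 genes named below or above by rule, 143 kept the sign and the side of the threshold without ataxin-7 replicate 1, 79 without replicate 2, 105 without replicate 3, and 75, 75 and 78 without non-stop replicates 1, 2 and 3.

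The early zygotic classes were lower in non-stop by their medians, and replicate 1 on average lay nearer to the non-stop libraries than replicates 2 and 3 did. Over 10 such classes, 61 of 106 members passed the filter on low values, and 56 of the 61 had a negative log2 fold change. Some of them, such as slp2 and wntD, passed the filter only through the libraries labelled ataxin-7, which fixed their direction. Of the 61, 17 were called lower and 1 higher, with a median of -1.40, where 16.7% of all tested genes were called lower and 15.5% higher with a median of 0.12. Without replicate 1 the counts were 56 lower and 5 higher (29.2% and 51.9% among all tested), and the median was -1.98. The calls hung on single libraries, and the lower calls numbered 0 without ataxin-7 replicate 2, 2 without replicate 3, 0 without non-stop replicate 1 or 2 and 1 without replicate 3. They numbered 14 with the filter set at an RPKM of 5, 2 with no filter and 5 where libraries were centred by gene length. When whole reads recovered from the RPKM were tested with voom they numbered 2. The values below are therefore given by library. On the mean of log2(RPKM + 1) over the 61 genes, the non-stop libraries stood at 2.54, 2.82 and 2.93 and the libraries labelled ataxin-7 at 3.15, 4.39 and 4.70. Replicate 1 was on the side of replicates 2 and 3 in 41 of the 61 genes (67.2%, beside 53.6% of all tested genes), within the non-stop range in 15 and opposite in 5. In most of the 61 genes replicates 2 and 3 lay above non-stop. On that side 81.3% of all tested genes agreed, 9.29% lay within the range and 9.42% were opposite, so agreement here was below that share. Replicate 1 exceeded the mean of the non-stop libraries by 0.38 on this scale and replicates 2 and 3 exceeded that mean by 1.78.

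Gap genes, the first zygotic genes to divide the embryo into broad domains, lay on one side in all members. All 7 tested gap genes (of 10) were below the libraries labelled ataxin-7 in every non-stop library, replicate 1 included, but only Kr was called. Kr, which overlaps CG9380 in the annotation, had an RPKM of 2.65, 3.58 and 3.24 in non-stop libraries and 5.73, 16.9 and 27.5 in the libraries labelled ataxin-7 (log2 fold change -1.87 ± 0.53, limma adjusted p = 0.045). Hunchback (hb), which also has a maternal transcript, had 29.4, 28.0 and 25.4 RPKM in non-stop and 32.2, 41 and 58.5 in the other group (limma adjusted p = 0.0769). Replicate 1 was the nearest of its group to non-stop in all 7. The medians were -1.70 with replicate 1 and -2.36 without it.

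Pair-rule genes, which draw the striped pattern that prefigures the segments, gave a median of -1.76, and 3 of the 8 tested were called lower. For even-skipped (eve) the RPKM was 3.02, 4.61 and 5.81 in non-stop and 8.13, 27.7 and 29.7 in the libraries labelled ataxin-7, for paired (prd) 0.583, 1.53 and 3 against 3.98, 12.5 and 15, and for slp2 0.289, 0.607 and 0.595 against 1.28, 3.76 and 3.46. Replicate 1 lay on the side of replicates 2 and 3 in 7 of the 8 and within the non-stop range in run. Non-stop replicate 1 was the lowest library of all in this class, with a class mean of 1.36 beside 1.77 and 2.23 in the other two. Of the segment polarity genes 2 of 8 were tested: ci was called lower (0.775, 1.67 and 1.72 RPKM in non-stop, then 4.95, 11.1 and 13.4) and ptc was not, with replicate 1 at 1.88 RPKM, just within the non-stop range of 0.283 to 1.89.

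The genes of cellularization and of the zygotic brake on mitosis formed the most highly expressed of these classes, and all 8 tested had a lower level in every non-stop library than in any library labelled ataxin-7. Of these, halo, dunk and trbl were called. Halo, a regulator of lipid droplet transport, had 84.7, 111 and 77.6 RPKM in non-stop and 169, 495 and 807 in the libraries labelled ataxin-7 (log2 fold change -2.17 ± 0.57, limma adjusted p = 0.0368). Dunk, a cellularization gene that overlaps CG42748, had 49.6, 49.4 and 47.6 RPKM in non-stop and 75.3, 206 and 330 in the other group. Tribbles (trbl), which halts mitosis, had 6.18, 7.67 and 6.67 against 12, 22.0 and 40.7. The class means were 5.35, 5.65 and 5.38 in non-stop and 6.07, 7.48 and 8.19 in the libraries labelled ataxin-7, so that replicate 1 lay between the groups and replicate 3 above replicate 2.

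In the classes of the dorsal side and of the Notch pathway, replicate 1 did not separate from non-stop. None of the 8 tested dorsal ectoderm genes (of 16) was called. All 8 were called lower without replicate 1, as were 29.2% of all tested genes. Replicate 1 lay within the non-stop range in 5 of them, on the opposite side in scw and on the side of its fellows in tld and Ance. For zerknullt (zen), the homeobox gene of the amnioserosa, the non-stop libraries had 16.7, 17.9 and 15.7 RPKM, replicate 1 had 17.8 and replicates 2 and 3 had 53.8 and 87.8. The BMP ligand gene scw, which overlaps Lar, had 28.1, 24.1 and 28.0 RPKM in non-stop, 18.7 in replicate 1 and 72.2 and 84.6 in replicates 2 and 3. On the class mean replicate 1 was 0.07 above non-stop and replicates 2 and 3 were 1.61 above it.

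The Bearded family and Enhancer of split genes, whose products restrain or carry out Notch signalling, gave 2 lower calls (Tom and Ocho) among 8 tested of 14 and a median of -1.21. Replicate 1 lay within the non-stop range in 5 of the 8. Tom had 7.08, 13.5 and 25.8 RPKM in non-stop and 31.9, 93.4 and 89.7 in the libraries labelled ataxin-7, and the range of the non-stop libraries was wider than the gap from the highest of them to replicate 1. In the neuroectoderm class D and SoxN, both Sox transcription factor genes, were called lower among 6 tested of 14. D had 6.45, 8.15 and 7.35 RPKM in non-stop, against 14.2, 36.0 and 62.0. SoxN had 0.734, 1.44 and 2.79 RPKM in non-stop, against 3.90, 10.4 and 10.7.

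Ventral mesoderm genes, of which 8 of 14 were tested, split by member. The early regulators twist (twi) and snail (sna), together with Mdr49, which overlaps Sans, and wntD, were called lower. Snail had 5.58, 7.69 and 8.71 RPKM in non-stop and 13.7, 33.9 and 58.6 in the libraries labelled ataxin-7 (log2 fold change -1.93 ± 0.52, limma adjusted p = 0.0388). For twi, which overlaps 4 annotated genes, the values were 3.63, 7.41 and 6.78 against 10.2, 33.1 and 46.5. The other 4 tested members, zfh1, mthl1, fog and Mef2, had positive log2 fold changes of 0.34 to 0.56 and none was called. All 4 were called higher without replicate 1, as were 51.9% of all tested genes. Among the sex determination genes Sxl, the switch gene of female development, was called lower (1.94, 3.94 and 3.56 RPKM in non-stop, then 5.85, 14.1 and 16.5), and her was called higher (18.6, 17.9 and 17.0 against 11.6, 11.8 and 12.4).

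The maternally supplied activators of the zygotic genome did not follow this pattern. Of the 5 genes tested 2 were called, both higher in non-stop. Zelda (zld), which opens chromatin at early zygotic genes, had 44.7, 37.1 and 40.6 RPKM in non-stop and 33.4, 32.6 and 33.0 in the libraries labelled ataxin-7 (log2 fold change 0.29 ± 0.08, limma adjusted p = 0.0399). Replicate 1 was at the level of replicates 2 and 3 in zld. Its call was lost under all 3 other scalings (-0.02 to 0.26), with no filter, with the replicate block, and when any 1 library other than ataxin-7 replicate 1 was left out (0.23 to 0.36). Neither zld nor bcd, the other activator called, was called without any 1 non-stop library. None of the 8 homeotic genes passed the filter, and none reached an RPKM of 1 in any of the 6 libraries.

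**Figure D2:**
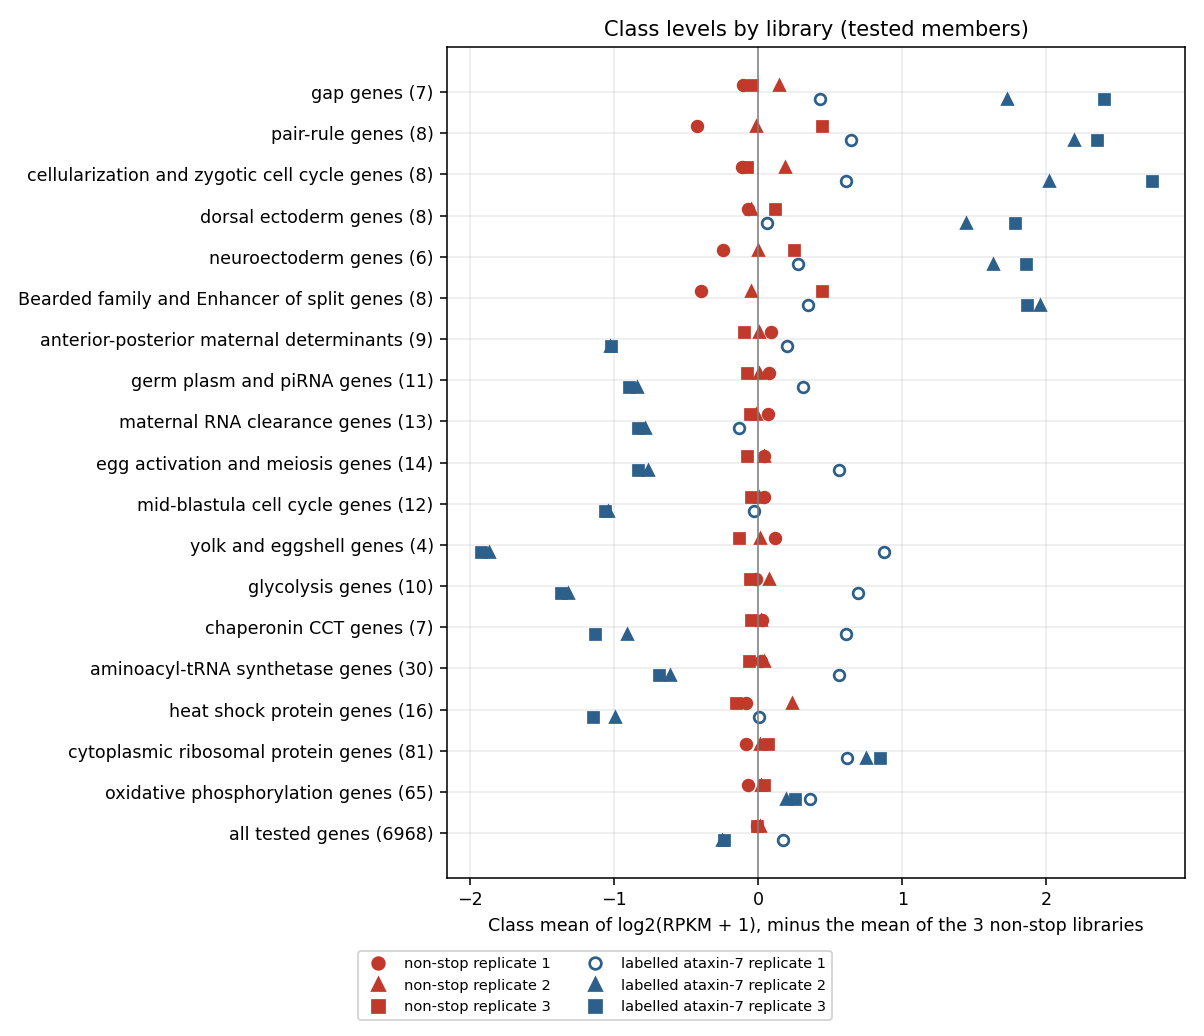
Mean of log2(RPKM + 1) over the tested members of each class (their number in brackets) in each of the 6 libraries, drawn as the difference from the mean of the 3 non-stop libraries (red); libraries labelled ataxin-7 are blue, with replicate 1 as an open circle. Replicates 2 and 3 lie to the right of non-stop in zygotic, ribosomal protein and oxidative phosphorylation classes. They lie to the left in maternal, glycolysis, CCT, aminoacyl-tRNA synthetase and heat shock classes. Replicate 1 lies near 0 or on the other side in all classes shown but the ribosomal protein, oxidative phosphorylation and some zygotic classes.

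Maternal classes were higher in non-stop by their medians, and here replicate 1 mostly lay at or above the non-stop level. Over 8 such classes 77 of 103 members were tested, 16 were called higher and 6 lower, and the median log2 fold change was 0.49. Among all tested genes 15.5% were called higher and 16.7% lower with a median of 0.12. Without replicate 1 the counts were 59 higher and 13 lower and the median was 0.76, against 51.9%, 29.2% and a median of 0.22 for all tested genes. The higher calls fell to between 3 and 7 when any other library was left out, 5 and 7 without ataxin-7 replicates 2 and 3 and 3 without each non-stop replicate. Where libraries were centred by gene length the median was 0.13 and the higher calls numbered 5. The tested maternal genes had a median length of 4.75 kb, against 2.43 kb for all tested genes. The class mean was 4.99, 4.94 and 4.87 in non-stop, 5.13 in replicate 1 and 4.15 and 4.12 in replicates 2 and 3. Replicate 1 agreed in 36 of the 77 genes, lay within the non-stop range in 9 and was opposite in 29. In 26 of the 29 replicates 2 and 3 lay below non-stop, a side on which 42.2% of all tested genes were opposite and 48.9% agreed.

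The maternal genes in which replicate 1 did agree were mostly those with modest differences. Of the genes that clear maternal RNA, 9 of 13 agreed and 4 were called higher, beside 53.6% and 15.5% of all tested genes. Smaug (smg), the RNA-binding protein that triggers clearance, had 419, 388 and 399 RPKM in non-stop and 288, 235 and 219 in the libraries labelled ataxin-7 (log2 fold change 0.71 ± 0.11, limma adjusted p = 0.00757). The deadenylase gene Pop2 had 40.7, 43.5 and 45.2 RPKM in non-stop against 34.8, 26.8 and 26.9, and the repressor gene me31B had 1032, 1025 and 985 against 884, 729 and 705. Bicoid (bcd), the anterior determinant, and staufen (stau), which localizes RNA, were also called higher, with bcd at 55.1, 52.1 and 51.4 RPKM in non-stop and 42.6, 41 and 37.5 in the other group. In stau, with 70.5, 63.6 and 66.5 RPKM in non-stop and 50, 50.8 and 52.5 in the other group, replicate 1 could not be told from its fellows. The call of stau was lost under centring by gene length, where its log2 fold change was -0.21. The same centring gave 0.34 for smg, 0.20 for me31B, 0.04 for Pop2 and 0.02 for bcd. It moved the median of the clearance genes from 0.57 to 0.13 and left 1 of them called higher.

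Cell cycle genes of the mid-blastula transition gave 4 higher calls and 1 lower call among 12 tested, beside 15.5% and 16.7% of all tested genes. Cyclin A (CycA), which overlaps CG7264, had 301, 296 and 315 RPKM in non-stop and 209, 180 and 175 in the libraries labelled ataxin-7 (log2 fold change 0.69 ± 0.08, limma adjusted p = 0.00334), and the checkpoint kinase gene grp, whose locus holds several other genes, had 37.6, 36.7 and 36.6 against 23.4, 13.7 and 13.9. Twine (twe), a Cdc25 phosphatase gene that overlaps EndoGI, went the other way with 79.1, 72.9 and 77.0 RPKM in non-stop and 94.8, 97.4 and 102 in the other group. Its relative string (stg) was not called, and replicate 1 with 68.9 RPKM lay within the non-stop range of 65.6 to 70.9, far from the 25.6 and 20.7 of replicates 2 and 3. In the germ plasm and piRNA class, krimp was called higher and aub lower. The Piwi protein gene aub, which overlaps TTLL4A, had 23.3, 23.7 and 24.2 RPKM in non-stop and 38.2, 34.9 and 37.3 in the libraries labelled ataxin-7, so all 3 libraries labelled ataxin-7 were alike. In the axis pathways of the egg, 2 of 9 tested Toll pathway genes (Tl and ea) were called lower and 1 of 8 Torso pathway genes (cic) higher. These counts lay near the 16.7% lower and 15.5% higher of all tested genes.

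Replicate 1 lay above non-stop, and replicates 2 and 3 below it, in several RNAs of oogenesis and egg activation. The posterior determinant oskar (osk) had 69.1, 62.8 and 48.3 RPKM in non-stop, 93.5 in replicate 1 and 4.14 and 3.55 in replicates 2 and 3. It was not called with replicate 1 (log2 fold change 2.21 ± 1.20, limma adjusted p = 0.203) and was called without it (3.64). The same order held for BicC, a translational repressor (26.7, 25.1 and 18.3 RPKM in non-stop, then 67.8, 1.10 and 1.29), and for the egg tubulin gene alphaTub67C (21.8, 22.6 and 19.3, then 83.4, 3.84 and 3.53). The anterior RNA localization gene exu had 8.65, 10.1 and 7.88 RPKM in non-stop, 48 in replicate 1 and 1.36 and 1.51 in replicates 2 and 3. Of 14 tested egg activation and meiosis genes, 7 were opposite, all with replicates 2 and 3 below non-stop and replicate 1 above it. Among all tested genes 26.6% were opposite, and 42.2% of those whose replicates 2 and 3 lay below non-stop. The order is thus not particular to these RNAs.

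The vitellogenin receptor gene yolkless (yl), which is expressed in the ovary and takes up yolk, had 39.5, 37.5 and 33.3 RPKM in non-stop, 94.1 in replicate 1 and 3.27 and 3.16 in replicates 2 and 3. Yl carried nearly all of the summed level of 16 ovary and eggshell markers, which was 40.5, 38.6 and 34.2 RPKM in non-stop and 95.0, 4.40 and 3.86 in the libraries labelled ataxin-7. The other 15 stayed under 1 RPKM in all 6 libraries, and 5 of them (Vm32E, Vm34Ca, Cp16, Cp19 and Cp38) had no read. The summed level of 5 pole cell and germ plasm markers was 184, 171 and 148 RPKM in non-stop and 267, 85.3 and 79.8 in the libraries labelled ataxin-7, and that of 12 blastoderm markers was 271, 302 and 271 in non-stop and 375, 909 and 1402 in the other group. Many of these markers, such as yl, aub, Kr, hb, eve, twi, sna and zen, are themselves members of the maternal and zygotic classes. Their sums are therefore no separate check of those classes, and the part of the markers in the other differences was not tested.

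Over all tested genes, those in which replicate 1 lay farthest above replicates 2 and 3 were Cyp6a19, BicC, GstD1, Gapdh2, dhd and yl. Cyp6a19, a cytochrome P450 gene that overlaps Cyp6a9, had 5.69, 7.24 and 6.64 RPKM in non-stop, 41.1 in replicate 1 and 0.121 and 0.352 in replicates 2 and 3. GstD1, a glutathione transferase gene, had 31.5, 37.4 and 31.4 RPKM in non-stop, 97.3 in replicate 1 and then 2.09 and 2.20 in replicates 2 and 3. The thioredoxin gene dhd, active in the egg, had 243, 274 and 255 RPKM in non-stop and 34.8 and 46.1 in replicates 2 and 3, and replicate 1 was 24.7 times the mean of replicates 2 and 3. All 6 genes placed the non-stop libraries between replicate 1 and its fellows.

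In the other direction, replicate 1 lay farthest below replicates 2 and 3 in CG34214, CG15480, CG43725, CG14915, Z600 and bnb. Z600, a zygotic inhibitor of mitosis whose locus overlaps gdl, had 27.0, 57.5 and 40.0 RPKM in non-stop, 76.9 in replicate 1 and 255 and 533 in replicates 2 and 3. It missed the threshold (log2 fold change -2.44 ± 0.73, limma adjusted p = 0.0506). Bnb had 18.8, 48 and 60.2 RPKM in non-stop, 53.3 in replicate 1 and 219 and 274 in replicates 2 and 3. Replicate 1 was within the non-stop range there, as it was for the further genes term, run, spo, CG13465 and CG7271, all of which were called lower without it. In term, a gene named for its early expression at the ends of the embryo, the non-stop libraries had 46.7, 57.5 and 51.7 RPKM, replicate 1 had 57.4 and replicates 2 and 3 had 189 and 347.

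**Figure D3:**
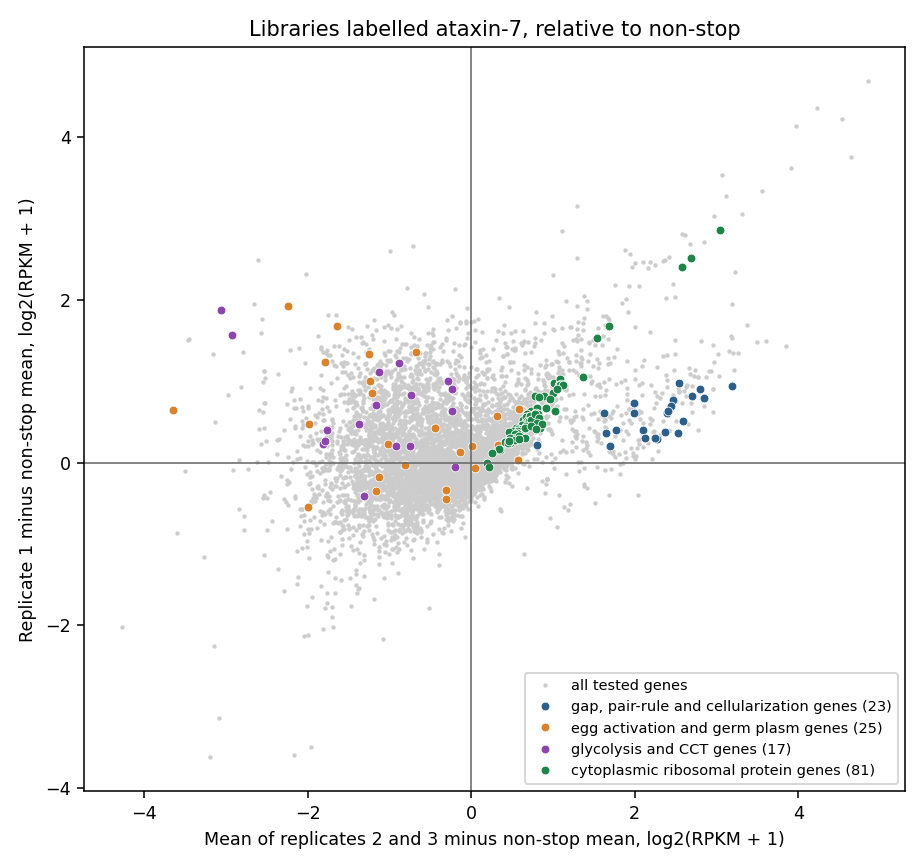
Each point is a tested gene; the horizontal axis is the mean of replicates 2 and 3 labelled ataxin-7 minus the non-stop mean and the vertical axis is replicate 1 minus the same non-stop mean, both on log2(RPKM + 1), so the axes share the non-stop values. Ribosomal protein genes (green) lie near the diagonal, gap, pair-rule and cellularization genes (blue) lie far to the right but low, and most egg, germ plasm, glycolysis and CCT genes (orange and purple) lie to the left of 0 and above it.

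The order of the egg RNAs recurred in the chaperonin CCT, glycolysis and most aminoacyl-tRNA synthetase genes. All 7 genes of the cytosolic chaperonin CCT, which folds actin and tubulin, had replicate 1 above and replicates 2 and 3 below every non-stop library, and none was called. CCT4 had 49.5, 45.8 and 47.8 RPKM in non-stop, 57.6 in replicate 1 and then 13.3 and 12.9 in replicates 2 and 3. The class medians were 0.43 with replicate 1 and 1.13 without it. All 7 were called higher without replicate 1, as were 51.9% of all tested genes. CCT1 changed sign between the fits, with a log2 fold change of -0.06 when replicate 1 was kept and 0.23 when it was left out. Of 30 tested aminoacyl-tRNA synthetase genes (of 31), which charge tRNAs for translation, 21 were opposite in the same sense. Another 6 agreed, and over all tested genes 26.6% were opposite and 53.6% agreed. The 3 calls were TyrRS, IleRS and LysRS, all lower in non-stop. Of these TyrRS had 44.4, 47.9 and 48.2 RPKM in non-stop and 60.7, 67.0 and 68.6 in the other group.

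Glycolysis genes gave a median of 0.78 and a single call. Hexokinase A (Hex-A) had 33.2, 29.7 and 30.2 RPKM in non-stop and 23.1, 13.6 and 10.4 in the libraries labelled ataxin-7 (log2 fold change 1.01 ± 0.28, limma adjusted p = 0.0411). It was the only one of 10 tested (of 12) in which replicate 1 agreed. Gapdh2 had 45.6, 51.0 and 44.6 RPKM in non-stop, 175 in replicate 1 and 4.24 and 5.35 in replicates 2 and 3, and Tpi had 15.1, 18.7 and 15.5, then 50.5, 0.958 and 1.66. In 8 of the 10 genes replicate 1 was opposite, beside 26.6% of all tested genes. All 10 were called higher without replicate 1, as were 51.9% of all tested genes. The call of Hex-A was in turn lost when any 1 of the other 5 libraries was left out.

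**Figure D4:**
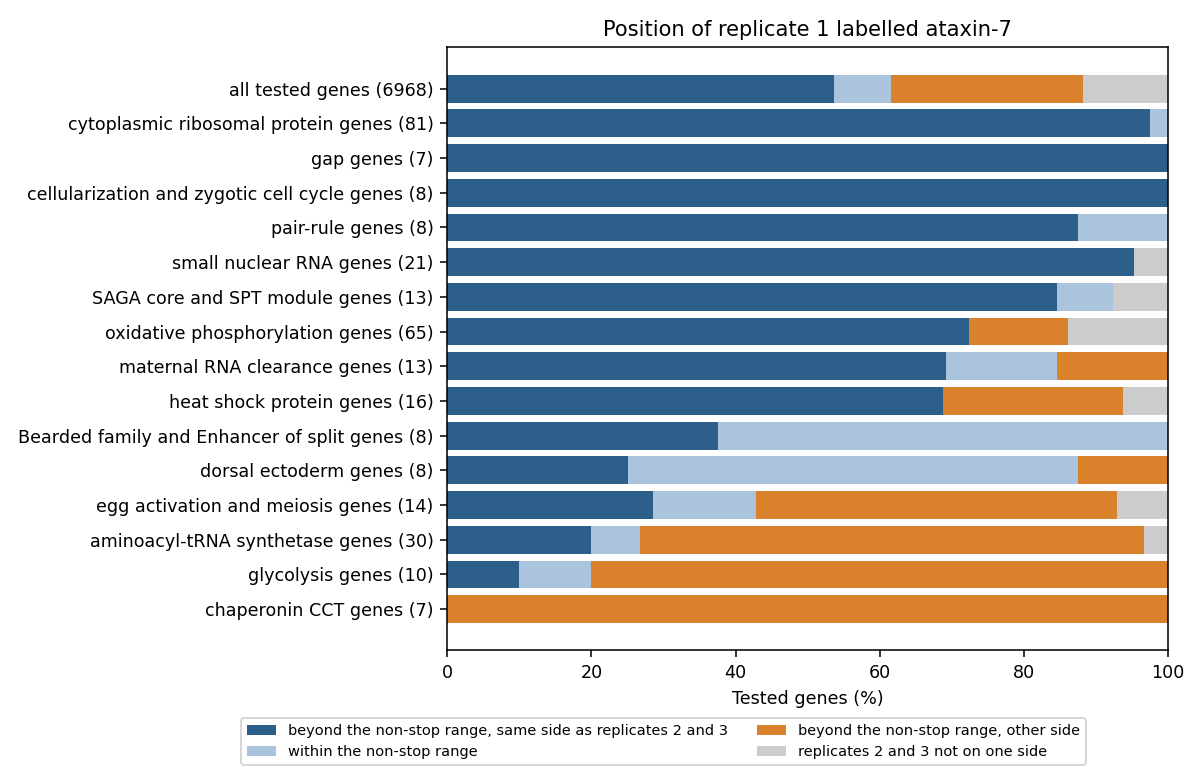
Share of all tested members of each class (number in brackets) by where replicate 1 labelled ataxin-7 lay relative to the 3 non-stop values. Genes whose replicates 2 and 3 were not both above or both below these values form a separate part of each bar. Replicate 1 shared the side of replicates 2 and 3 for 79 of 81 ribosomal protein genes and all 7 gap genes, and for none of the 7 CCT genes, beside 53.6% of all tested genes.

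Cytoplasmic ribosomal protein genes separated the mutants with little disagreement among replicates. The table held 88, of which 81 were tested, and 78 were called lower and none higher in non-stop (38 lower and 13 higher under quantile normalization). The class mean of log2(RPKM + 1) was 8.91, 9.01 and 9.06 in non-stop libraries and 9.61, 9.74 and 9.84 in libraries labelled ataxin-7. Replicate 1 was on the side of replicates 2 and 3 for 79 genes and within the non-stop range for RpL7-like and RpL41, which were not called. The median log2 fold change was -0.64, and -0.69 without replicate 1. The lower calls numbered from 55 to 80 when single libraries were left out, with 55 without non-stop replicate 1 or 2, 60 without replicate 3 and 56 and 73 without ataxin-7 replicates 2 and 3.

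The size of the difference was uneven over the ribosome. RpLP0, the stalk protein, had 47.3, 63.2 and 80.5 RPKM in non-stop and 460, 499 and 546 in the libraries labelled ataxin-7, a log2 fold change of -2.99 ± 0.19 (limma adjusted p = 0.00103). RpS2 had 156, 191 and 228 RPKM in non-stop against 1088, 1172 and 1277 (-2.63 ± 0.15), and sta, the gene of the small subunit protein RpSA, had 120, 134 and 168 against 744, 810 and 871 (-2.53 ± 0.14). RpS5b, a paralogue of RpS5a that is expressed in the female germline, had 139, 151 and 158 against 479, 483 and 479 (-1.68 ± 0.06). The other 77 genes ranged from -1.54 to -0.13, and 12 of the 81 were called with at least a 2-fold difference. Reads of sta could be shared with 2 small nucleolar RNA genes inside it.

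Gene length and scaling bear on this class. Ribosomal protein genes were short, with a median length of 1.17 kb, and when all tested genes were split by length into 5 equal bins the median log2 fold change was -0.15 in the shortest and 0.32 in the longest bin. After centring within length bins 35 of the 81 were called lower. Quantile normalization, which forces the same distribution on every library, called 38 lower and 13 higher with a median of -0.11, so the direction for part of the family depended on the scaling, whereas under the other scalings none was called higher.

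**Figure D5:**
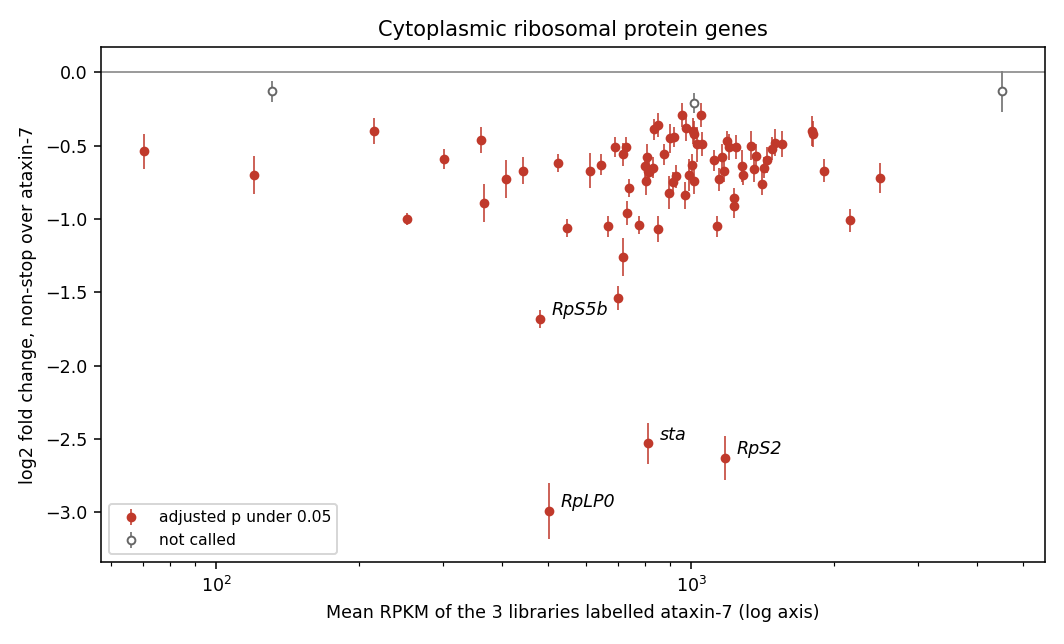
Log2 fold change (non-stop over ataxin-7, with its standard error as bars) of the 81 tested cytoplasmic ribosomal protein genes against their mean RPKM in the 3 libraries labelled ataxin-7. All points lie below 0 on this scaling (13 genes were called higher under quantile normalization), the 3 open ones were not called, and RpLP0, RpS2 and sta lie apart from the rest between -2.99 and -2.53.

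Mitochondrial genes were lower in part. Of 65 tested genes of oxidative phosphorylation (of 90) 36 were called lower and 3 higher, with a median of -0.32. Among all tested genes 16.7% were called lower and 15.5% higher, with a median of 0.12. COX7C, a subunit of cytochrome c oxidase that overlaps oys, had 31.5, 35.1 and 35.5 RPKM in non-stop and 75.9, 79.1 and 84.5 in the libraries labelled ataxin-7 (log2 fold change -1.21 ± 0.07, limma adjusted p = 0.000769). The complex I gene ND-B16.6 had 24.8, 25.5 and 26.1 RPKM against 55.6, 55.2 and 58.5, and replicate 1 was indistinguishable from its fellows in both. Replicate 1 agreed for 47 of the 65 (72.3%, beside 53.6% of all tested genes). After centring within length bins 18 were called lower, and 22, 23 and 24 were without non-stop replicates 1, 2 and 3. The median length in this class was 1.10 kb.

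Of 71 mitochondrial ribosomal protein genes 17 were called lower and 3 higher, and replicate 1 agreed in 33 (46.5%), beside 16.7%, 15.5% and 53.6% of all tested genes. Without replicate 1 the class had 24 higher and 20 lower calls, beside 51.9% and 29.2% of all tested genes. Each non-stop library left out lowered the 17 to 10. MRpL2 (mRpL2), which overlaps Ufd1, had 1.57, 2.25 and 1.88 RPKM in non-stop and 14.2, 11.9 and 11.9 in the other group (-2.24 ± 0.16). Proteasome genes gave 15 lower and 2 higher calls among 34 tested of 47 (all tested genes: 16.7% and 15.5%) and a median of -0.09. The lower calls numbered 6 after centring by length and 6 under quantile normalization. Prosalpha5, a core subunit, had 207, 204 and 211 RPKM in non-stop and 319, 319 and 357 in the libraries labelled ataxin-7. Of 35 tested translation initiation factor genes (of 43) 13 were called lower and 2 higher (all tested genes: 16.7% and 15.5%). The lower calls numbered from 4 to 17 over the 6 settings that leave out a library. They numbered 4 without non-stop replicate 1 and 17 without ataxin-7 replicate 1. EIF3m (eIF3m) had 148, 151 and 160 RPKM in non-stop and 225, 260 and 276 in the other group.

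Genes of SAGA itself differed little apart from not. Of the other 3 genes of the deubiquitinase module, e(y)2 was called lower (30.3, 30.1 and 31.0 RPKM in non-stop against 37.4, 37.8 and 44.3), Atxn7 is given above, and Sgf11 had 51.6, 52.9 and 50.1 against 47.1, 49.9 and 54.4 with a log2 fold change of 0.03. In the acetyltransferase module Gcn5, the acetyltransferase, which overlaps ver, and Sgf29 were called lower, with log2 fold changes of -0.30 and -0.29, and Ada2b and Ada3 were not. Neither call held without ataxin-7 replicate 2 or any 1 non-stop library. Among 13 core and SPT module genes 5 were called lower and Spt20 higher, beside 16.7% and 15.5% of all tested genes. Spt20 had 44.1, 37.7 and 39.9 RPKM in non-stop and 24.9, 20 and 18.8 in the libraries labelled ataxin-7 (log2 fold change 0.91 ± 0.12, limma adjusted p = 0.00552). Its call was lost only after centring within length bins among the settings run. The 5 lower genes, among them the close copies Ada1-1 and Ada1-2, had log2 fold changes between -0.49 and -0.36, and none of them was called when any 1 non-stop library was left out or when recovered reads were tested with voom. Replicate 1 agreed in 11 of the 13 (84.6%, beside 53.6% of all tested genes).

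The genes needed to put ubiquitin on H2B, the mark that Non-stop removes, encode the E2 and E3 enzymes and subunits of the Paf1 elongation complex and its partner Rtf1. All had replicate 1 on the side of replicates 2 and 3, as had 53.6% of all tested genes. Of 6 genes tested Rtf1, Ubc6 and Bre1 were called higher and atms lower in non-stop. Rtf1 had 102, 99.5 and 103 RPKM in non-stop and 72.4, 57 and 49.3 in the other group. The E2 enzyme gene Ubc6 had 50.8, 51.7 and 52.2 RPKM against 37.1, 36.9 and 41, and the E3 ligase gene Bre1 had 122, 116 and 119 against 94.7, 99.0 and 109. Only 1 of the 3 higher calls was made without ataxin-7 replicate 2 or without any 1 non-stop library. Centring by gene length also left 1 and turned the sign for Bre1 (-0.12). Among 20 tested ubiquitin-specific protease genes (of 21) 3 were called higher (Usp5, faf and Usp1), a share near the 15.5% of all tested genes, and only not was called lower. None of the 3 higher calls held without ataxin-7 replicate 2 or any 1 non-stop library. The median of this class was 0.18, beside 0.12 over all tested genes, and no member other than not and Usp5 had a log2 fold change above 0.70 in size.

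Histone variant genes gave 4 lower calls among 6 tested, beside 16.7% of all tested genes called lower. His4r, the replacement H4 gene, had 294, 323 and 319 RPKM in non-stop and 600, 669 and 671 in the libraries labelled ataxin-7 (log2 fold change -1.05 ± 0.07, limma adjusted p = 0.00103). Both H3.3 genes and His2Av were called with log2 fold changes from -0.48 to -0.42, and these 3 calls were lost when any library other than ataxin-7 replicate 1 was left out. Under quantile normalization His2Av had a value of 0.14. The embryonic linker histone gene BigH1 and the centromeric histone gene cid were not called. In both of them replicate 1 was opposite, with cid at 5.10, 6.03 and 4.68 RPKM in non-stop, 13.4 in replicate 1 and 1.8 and 1.82 in replicates 2 and 3.

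Other transcription complexes showed calls in both directions. Of 12 TFIID genes 2 were called higher and 5 lower, and the median was 0.00. Taf8 had 31.6, 31.1 and 30.6 RPKM in non-stop and 24.6, 11.7 and 11.3 in the other group, whereas Taf13, which overlaps Pyroxd1, had 39.2, 40.6 and 36.7 against 50.6, 57.6 and 71.3. Of 29 Mediator genes 4 were called higher and 7 lower. Within its kinase module CycC was lower (24.5, 24.7 and 26.3 RPKM in non-stop against 43.8, 49.3 and 55.1), and Cdk8 and skd were higher, Cdk8 with 10.4, 10.3 and 11.1 against 7.75, 5.57 and 5.42. Of 18 Polycomb group genes 3 were called higher (Psc, Jarid2 and pho) and none lower, and of 10 ATAC genes 2 were called lower (Atac2 and Ada2a). Nucleoporin genes gave 4 calls in each direction among 21 tested, and tubulin and actin genes 2 lower calls among 10 tested of 15, one of them alphaTub84B with 1186, 1202 and 1216 RPKM in non-stop against 1580, 1851 and 1947. Among all tested genes 15.5% were called higher and 16.7% lower. The lower calls of TFIID (5 of 12) exceeded that share. The higher calls of the Polycomb group (3 of 18), the lower calls of ATAC (2 of 10) and the nucleoporin calls lay near it. Without non-stop replicate 1 the calls numbered 0 higher and 2 lower in TFIID, 1 and 1 in Mediator, 1 and 0 in Polycomb group genes and 0 and 0 in ATAC, whereas without ataxin-7 replicate 3 they numbered 0 and 4, 1 and 7, 2 and 0 and 0 and 2 in the same order.

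Stress genes separated the mutants in opposite directions. The 6 annotated copies of Hsp70, the inducible heat shock chaperone, were all called higher in non-stop, with log2 fold changes from 1.11 to 1.55. Hsp70Aa had 22.7, 32.6 and 28.4 RPKM in non-stop and 11.5, 8.82 and 7 in the libraries labelled ataxin-7. These copies are near identical in sequence, so reads could be assigned among them in any proportion and the 6 calls are not independent. Only 2 heat shock genes were called higher without ataxin-7 replicate 2 or without non-stop replicate 1 or 2, 4 without non-stop replicate 3 and 5 without ataxin-7 replicate 3. The small heat shock genes Hsp23 and Hsp22 were called lower: Hsp23 had 13.9, 20.2 and 20.6 RPKM in non-stop against 123, 137 and 135 (log2 fold change -2.81 ± 0.16, limma adjusted p = 0.0007), and Hsp22, which overlaps CG4456, had 4.32, 5.72 and 3.74 against 12, 15.2 and 18.9. Both calls held without any 1 library.

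Their neighbours in the same family behaved otherwise. Hsp26, which is loaded into the egg, had 312, 284 and 231 RPKM in non-stop, 386 in replicate 1 and 27.7 and 33.5 in replicates 2 and 3, and Hsp83, the Hsp90 gene, had 222, 214 and 180, then 433, 87 and 58.7. Replicate 1 was opposite in Hsp26, Hsp83, Hsc70-5 and Hsp60A. It agreed in 11 of the 16 heat shock genes tested (of 18), including all Hsp70 copies, and in 53.6% of all tested genes. Metallothionein A (MtnA), which binds copper and other metals, was lower in non-stop with 10.3, 12.2 and 13.5 RPKM, against 51.4, 49.2 and 44.8 in the libraries labelled ataxin-7 (log2 fold change -1.93 ± 0.11, limma adjusted p = 0.000796). It was the only one of 6 metallothionein genes to pass the filter.

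Small structured RNAs, which mostly lack a poly(A) tail, also separated the libraries, and replicate 1 agreed in 20 of 21 tested small nuclear RNA genes (of 31). Of the 21 genes 11 were called lower and 6 higher, beside 16.7% and 15.5% of all tested genes. With the filter set at an RPKM of 5 the lower calls numbered 4 and the higher calls 4. The directions of these genes followed the kind of RNA. Of 5 genes for U1, the RNA that recognizes the donor splice site, 4 were called higher in non-stop, with snRNA:U1:95Cb, which overlaps CG34355, at 18.7, 19.7 and 18.7 RPKM in non-stop and 6.10, 3.88 and 3.33 in the libraries labelled ataxin-7. SnRNA:U1:82Eb was the exception, with a log2 fold change of -0.76 that was not called. All 6 genes for U2 had negative log2 fold changes, from -1.57 to -0.90, and 5 were called lower. U12 of the minor spliceosome (snRNA:U12), which lies within Baldspot, had 18.1, 15.2 and 15.9 RPKM in non-stop against 99.5, 95.2 and 88.9. The copies of U1 and of U2 are nearly identical, so their reads cannot be placed with certainty.

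Of 28 tested small nucleolar RNA genes (of 258) 13 were called lower and 2 higher (all tested genes: 16.7% and 15.5%), with a median of -0.84. With single libraries left out, the lower calls ranged from 6 without non-stop replicate 3 to 22 without ataxin-7 replicate 1. They numbered 3 with the filter set at an RPKM of 5. Some members passed the filter only through the libraries labelled ataxin-7, such as snoRNA:U3:9B with 2, 4 and 5 reads in non-stop. All 3 genes for U3, the RNA of early ribosomal RNA processing, were called lower, and snoRNA:U3:54Aa had 10.6, 9.17 and 8.56 RPKM in non-stop against 54.2, 43.1 and 36.8. Of 30 tested long noncoding RNA genes (of 384) 11 were called lower and 6 higher, beside 16.7% and 15.5% of all tested genes. The lower calls numbered 7 without any 1 non-stop library, and the higher calls numbered 2 without ataxin-7 replicate 2 or non-stop replicate 3. With the filter set at an RPKM of 5 the lower calls of this class numbered 8. The largest differences were those of lncRNA:CR43264, lncRNA:CR43857 and lncRNA:CR43837, and the last of these had 11.2, 11.9 and 10.8 RPKM in non-stop against 85.6, 73.3 and 71.2. LncRNA:CR43264, with 7, 12 and 12 reads in non-stop, passed the filter only through the libraries labelled ataxin-7. In 17 tested cytochrome P450 genes (of 86), which act in steroid synthesis and detoxification, 8 were called lower and 1 higher (all tested genes: 16.7% and 15.5%). The lower calls numbered 3 without non-stop replicate 1 or 3 and 4 without non-stop replicate 2 or ataxin-7 replicate 2. Cyp310a1, which overlaps MESR3, had 0.150, 0.869 and 0.933 RPKM in non-stop and 3.66, 13.8 and 13.6 in the other group, with replicate 1 in between. With the filter set at an RPKM of 5 this class kept 3 lower calls and its median was 0.14 rather than -0.64.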

How the data were processed

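The authors deposited a single table of RPKM per FlyBase gene (15682 genes, 9 libraries). Per the labels, libraries were stranded TruSeq libraries, and the submitters' processing notes name CASAVA 1.8.2, TopHat2 2.0.13, edgeR 3.14.0 and the build dm3 without their roles. The counting tool, its strand setting and the annotation are not given in the sources used here, so reads of overlapping or antisense genes cannot be told apart. For 13807 of 13809 genes above 0 the RPKM were whole reads over a length and a library size (relative tolerance 1e-09), which gave the depth, and for a gene of 1 kb 3 reads correspond to 0.0341 to 0.0767 RPKM. Recovered lengths equalled the BDGP6 genomic span within 0.1 percent for 55.6% of matched genes.

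Genes reaching an RPKM of 1 in 3 or more of the 6 libraries were tested with limma 3.58.1 (R 4.3.3; lmFit and eBayes with an intensity trend, two-sided, no covariate) on log2(RPKM + 1), with Benjamini-Hochberg adjustment over the 6968 genes and calls under 0.05. This scale understates changes of low genes. Only the 6 libraries entered the fit, and the difference is non-stop minus ataxin-7. The p-values measure the spread between these libraries. Scripts were tested on simulated data. Symbols and overlaps came from the BDGP6 annotation of Ensembl release 115 (15002 identifiers matched), and no coordinate is given because the builds differ. No sequence table was used.

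Named genes were the targeted genes; in each direction the 12 called genes with the largest difference and no overlap between the groups; up to 4 called members of a class, or its most abundant members where fewer than 2 were called; the 6 genes in each direction in which ataxin-7 replicate 1 differed most from replicates 2 and 3; and the 6 with the largest difference among those called without replicate 1 in which it did not agree. 1 gene that this rule selects is not reported here. Other genes named were chosen after their values were seen. The 47 class lists (13 members unmatched) and the choice of libraries were made with earlier results of these data known. Alternatives were a pseudocount of 0.1, other filters, 3 scalings, voom on recovered reads, sample weights, a replicate block and each library left out.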

Additional observations from a re-analysis of the deposited data

How the results depend on the processing

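Values above come from 3 libraries a group with genotype and experiment confounded, and precision for low genes is limited by the smaller depth of the non-stop libraries. With single libraries left out, the calls ranged from 788 to 5655, the higher calls from 305 to 3618, the lower calls from 483 to 2037 and the calls of at least 2-fold from 223 to 1626. In each case the highest value was that without ataxin-7 replicate 1 and the lowest that without non-stop replicate 1. Centring within gene length bins gave 1468 calls, 654 of them higher, and shared 1078 calls with the 2241. With a replicate block 1383 genes were called, 576 of them higher. The replicate numbers come from separate experiments and pair no samples: deviations from the group means correlated at 0.37, -0.12 and 0.44 for numbers 1, 2 and 3. A pseudocount of 0.1, an RPKM of at least 5, no filter, median-of-ratios scaling, quantile normalization and voom kept all counts within 1.5 times, from 1803 to 2577 calls. The higher share of calls was 48.1%, and 64.0% without ataxin-7 replicate 1. Sample weights did not converge and were left out. The call of not held throughout. Atxn7 kept its sign, with -0.90 after centring by length, and missed the threshold under median-of-ratios scaling (-0.53), quantile normalization (-0.50), the replicate block (-0.40) and voom (-0.42), and ranged from -0.49 to -0.32 with single libraries left out.

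Signs turned under centring by length for the medians of the zygotic genome activators (-0.22), the Toll to Dorsal pathway (-0.06), the H2B ubiquitination writers (-0.14), Polycomb group (-0.19), nucleoporin (-0.22), ubiquitin-specific protease (-0.14), germ plasm and piRNA (-0.08) and mitochondrial ribosomal protein genes (0.03), and for zld (-0.02), stau (-0.21), rhi (-0.08), Rga (-0.22), sra (-0.27), Bre1 (-0.12), Jarid2 (-0.06), pho (-0.19) and Usp1 (-0.10). They also turned for the activators under median-of-ratios scaling (-0.07), for translation initiation factors (0.00) and His2Av (0.14) under quantile normalization, for cytochrome P450 genes with an RPKM of at least 5 (0.14, with fewer genes tested), for tubulin and actin genes at the same filter (0.01), for Mediator genes without ataxin-7 replicate 1 (0.02) and for CCT1, which ranged from -0.24 without ataxin-7 replicate 3 to 0.23 without replicate 1. Apart from the filter and the left-out libraries, the cause was not tested.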
